A study of Homo sapiens and Mus musculus with 16 samples.

Results

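The kinetochore is the protein assembly that joins a chromosome to the mitotic spindle, and the spindle checkpoint is the signal that holds a cell in mitosis until every kinetochore is attached. The RNAs of 41 genes of this machinery were followed in P-bodies, cytoplasmic granules of RNA and protein, and in the cytoplasm of 4 cell types. The genes were taken from a list of human symbols, matched in the human count table and, ignoring case, in the mouse table. All 41 were among the 22286 genes of the human table and 39 among the 15881 of the mouse table. Cenpc and Sgo2 were not matched in mouse. Rows named Cenpc1, Sgo2a and Sgo2b were present there and are given apart.

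In P-body-seq, particles carrying fluorescent LSM14A are sorted from a cell lysate, and their RNA is sequenced next to cytoplasmic RNA. By the authors' methods, the cytoplasmic fraction is a resuspended pellet of the lysate freed of nuclei. P-bodies are sorted out of it, and its libraries come from aliquots kept before sorting. The fraction called cytoplasm here therefore still holds P-bodies and leaves out RNA that does not pellet. Each cell type gave 2 P-body and 2 cytoplasm libraries, 16 in all, and every line carried LSM14A fused to GFP. HEK293T, a human embryonic kidney line, and mESC, mouse embryonic stem cells of the line KH2 grown in serum with LIF, carried the fusion from a lentivirus, and their libraries were labelled total RNA (Snap seq). Liver bud progenitors and day 20 neurons were made from UCLA4 human embryonic stem cells with the fusion at the AAVS1 locus, and their libraries were labelled polyA RNA (V4 Ultra and Nextera XT). Between these pairs of cell types, the kind of RNA and the cell type cannot be told apart. The labels do not say whether replicates came from separate cultures, so p-values measure the spread between libraries, which may be technical.

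In the inner kinetochore, CENPA marks the centromere and a network of CENP proteins binds it. In the outer kinetochore, the KNL1, MIS12 and NDC80 complexes reach out to microtubules, helped by the SKA complex and by motor and corona proteins. BUB1, BUB1B, BUB3, MAD1L1, MAD2L1 and TTK generate the checkpoint signal, Aurora and Polo kinases correct and time attachment, and shugoshins protect the cohesion of sister centromeres. Most of these genes are transcribed mainly in cells that are about to divide, and neurons are known for having left the cell cycle.

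Library totals ranged from 6368953 to 17972284 counts, and the members' counts correlated between replicates with a Spearman rho of at least 0.964. Over all genes the neuron P-body replicates stood apart, with rho 0.911 where the other groups reached 0.962 to 0.987. Neuron markers summed to 14300 and 14200 CPM (counts scaled to library size) in neuron cytoplasm and to 520 and 549 CPM in liver bud progenitor cytoplasm. Liver bud markers summed to 436 and 415 CPM in liver bud progenitor cytoplasm, with ALB the 1 marker of 11 at 0 in both libraries, and pluripotency markers to 1450 and 1380 CPM there. APOB alone had a mean of 281 CPM in that fraction. Liver bud markers summed to 72.8 and 65 CPM in neuron cytoplasm. In P-bodies they summed to 254 and 254 CPM in neurons, 237 and 238 CPM in HEK293T and 227 and 234 CPM in liver bud progenitors. These sums rest on different markers. In HEK293T P-bodies TBX3, PROX1, APOB and HNF4A had means of 130, 80, 1 and 0.472 CPM. In liver bud progenitor P-bodies the same genes had 14, 15.8, 120 and 15.5 CPM. Mouse ES cell markers summed to between 5360 and 5860 CPM in the mESC libraries. Fibroblast markers summed to at most 204 CPM in any human library and glia markers to at most 133 CPM in any library.

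In all 4 cell types more members were higher in P-bodies than lower. Summed over the members, the level was 8590 and 8850 CPM in HEK293T P-bodies against 4990 and 4840 CPM in cytoplasm, and 5370 and 5200 against 3070 and 2880 CPM in liver bud progenitors. Neurons had 3030 and 3220 against 1020 and 1060 CPM, and mESC 7190 and 7010 against 4100 and 4020 CPM. The fractions did not overlap in any cell type.

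Genes were called at an adjusted p under 0.05 (edgeR quasi-likelihood test, Benjamini-Hochberg over all genes tested). In HEK293T, 24 members were higher in P-bodies, 11 lower and 6 not called, against 19.3% of all genes higher and 22.8% lower. The 11 lower lie near that last share. The median log2 change of the members was 0.37, and that of all genes -0.01. Liver bud progenitors had 23 higher, 2 lower and 16 not called, beside 21.4% and 17.1% of all genes, with a median of 0.65 against -0.09. In neurons the numbers were 18, 2 and 21, beside 14.6% and 14.1%, with medians of 0.84 and 0.19. Of the 39 members in mESC, 26 were higher, 2 lower and 11 not called, beside 25.8% and 20.6%, with medians of 0.49 and -0.11. Scaling by library size alone moved the median of all genes to -0.13 in HEK293T, -0.51 in mESC, -0.28 in liver bud progenitors and 0.35 in neurons. The split of members then became 22 higher and 5 lower in liver bud progenitors, beside 17.4% and 22.1% of all genes, and 18 higher and 8 lower in mESC, beside 16.3% and 41.6%. Over genes at a mean of 1 CPM or more, the median of all genes was -0.13 in HEK293T, 0.04 in mESC, 0.05 in liver bud progenitors and -0.12 in neurons. The shares above count every gene tested, and in HEK293T only 12836 of 21903 were at that level. Under a filter for low counts (filterByExpr), 4434 of 13691 genes were higher and 4766 lower in HEK293T. The same filter gave 3757 and 3424 of 12414 in mESC, 4268 and 4143 of 14413 in liver bud progenitors and 3577 and 2739 of 15030 in neurons.

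The calls were shared by 12 members, which were higher in P-bodies of all 4 cell types. They are CENPN, CENPQ and CENPU of the inner kinetochore, NUF2 and KNL1 of the outer kinetochore, CENPF, SKA2, the checkpoint genes BUB1, BUB1B, BUB3 and TTK, and SGO1. CENPT was lower in all 4. Human and mouse genes stand in separate tables, and no share of all genes over the 4 cell types was computed, nor for opposite directions. Over the human cell types alone, 17 members were higher in all 3 and 1 was lower in all 3, beside 8.44% and 5.77% of the 21461 genes tested in each. SPC25, ZWINT, MAD2L1, AURKB and PLK1 were lower in P-bodies of HEK293T and higher in those of mESC, and CENPA and CENPH were called in none.

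**Figure D1:**
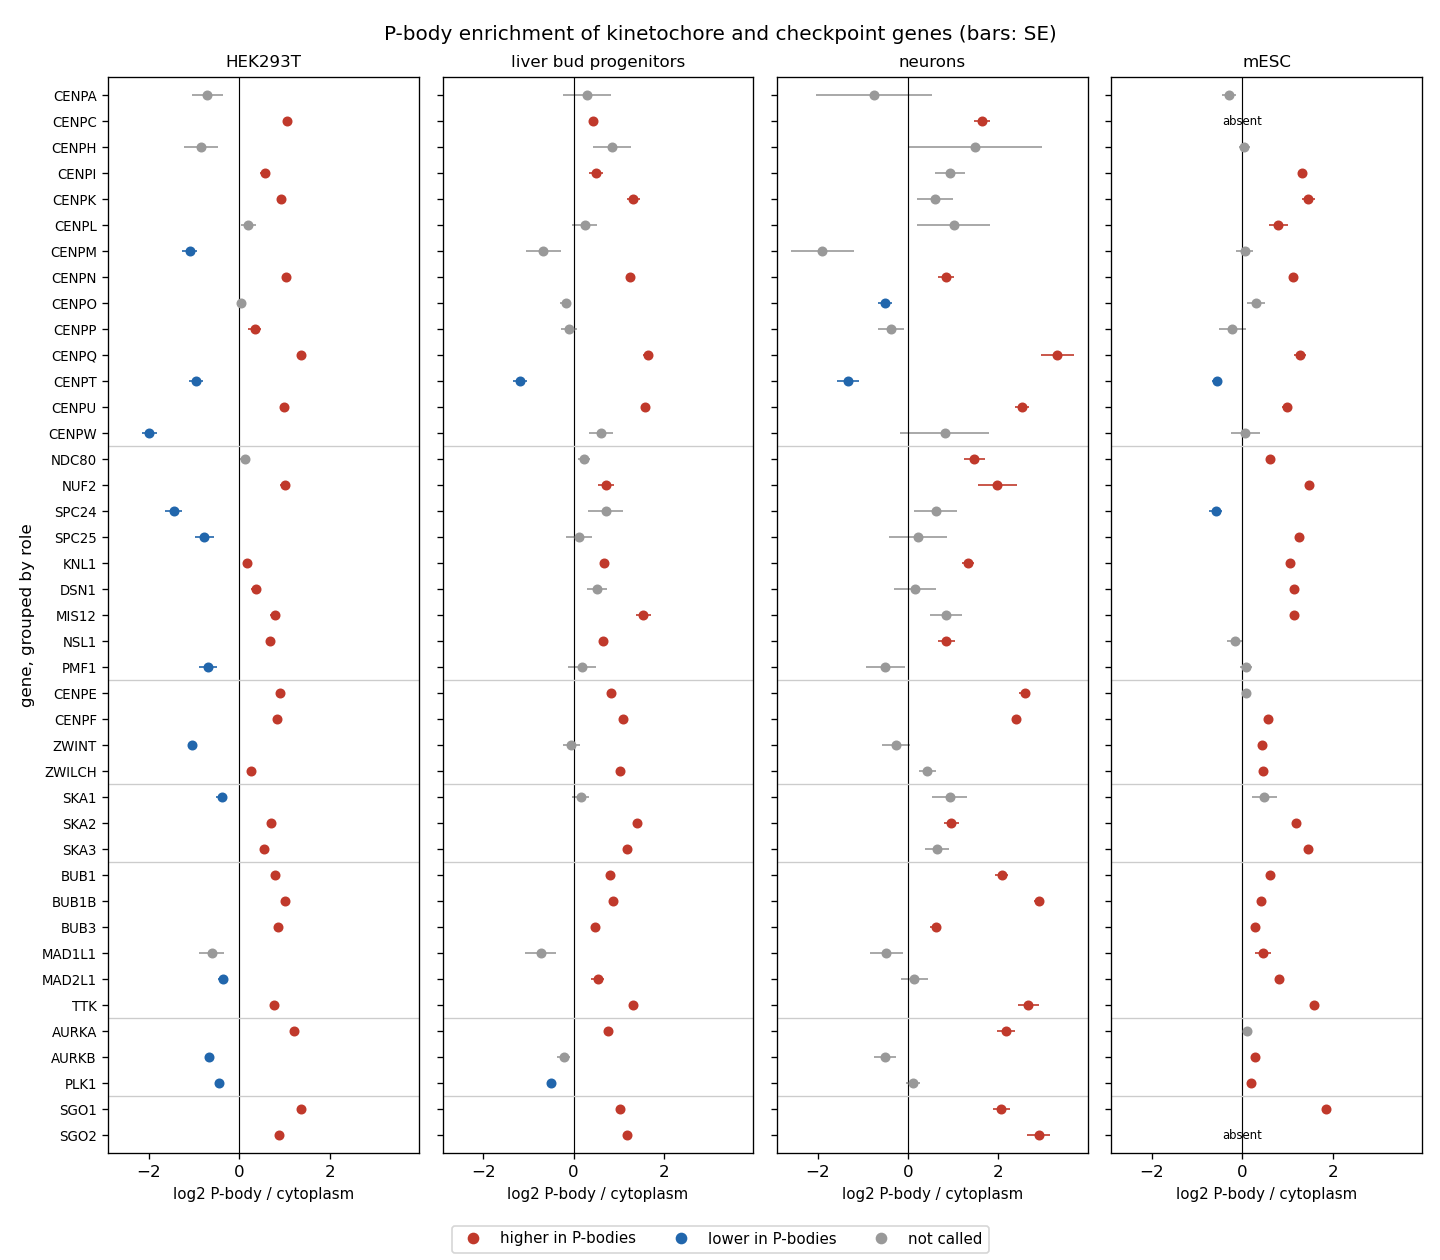
Log2 ratio of P-body to cytoplasm (x axis) for each of the 41 genes (y axis, grouped by role) in 4 cell types; points are edgeR estimates from 2 libraries per fraction, bars their standard error, red higher, blue lower and grey not called. CENPT lies left of 0 in each panel, and the 12 genes higher in all 4 cell types lie right of it.

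Of the 14 inner kinetochore genes, 7 were higher and 3 lower in P-bodies of HEK293T, 6 and 1 of 13 in mESC, 6 and 1 in liver bud progenitors and 4 and 2 in neurons. Each role is read beside the shares of all genes given above, 19.3% higher and 22.8% lower in HEK293T, 25.8% and 20.6% in mESC, 21.4% and 17.1% in liver bud progenitors and 14.6% and 14.1% in neurons. The 3 of 14 lower in HEK293T and the 2 of 14 lower in neurons lie near those shares. CENPN, which recognises the CENPA nucleosome, read, in CPM and with the P-body libraries given before the cytoplasm libraries, 615 and 582 against 285 and 297 in HEK293T, 98.3 and 98.2 against 50.2 and 40.9 in mESC, 182 and 175 against 81.4 and 68.9 in liver bud progenitors and 86.2 and 60.1 against 42.1 and 39.4 in neurons. The fractions were apart in each cell type. Its log2 changes were 1.04 ± 0.06 in HEK293T, 1.11 ± 0.08 in mESC, 1.25 ± 0.08 in liver bud progenitors and 0.84 ± 0.18 in neurons, with adjusted p = 1.47e-24, 4.7e-11, 5.12e-22 and 0.00276.

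CENPQ and CENPU belong to the same subcomplex, which helps to recruit Polo kinase. CENPQ read, in CPM, 166 and 167 against 68 and 61.5 in HEK293T, 39.8 and 36.8 against 18 and 13.8 in mESC, 104 and 109 against 36.6 and 31.7 in liver bud progenitors and 19.3 and 19.3 against 1.51 and 2.4 in neurons. Neuron cytoplasm held the lowest values, and neuron P-bodies stood above every neuron cytoplasm library. The log2 changes of CENPQ were 1.37 ± 0.07 in HEK293T, 1.27 ± 0.13 in mESC, 1.64 ± 0.1 in liver bud progenitors and 3.3 ± 0.36 in neurons, with adjusted p = 3.73e-24, 1.44e-08, 1.64e-23 and 1.47e-05. CENPU read, in CPM, 168 and 154 against 86.3 and 76.5 in HEK293T, 47.7 and 51.6 against 26.6 and 23.8 in mESC, 188 and 171 against 64.4 and 57 in liver bud progenitors and 79.9 and 82.4 against 13.5 and 14.8 in neurons. Its fractions did not overlap in any cell type, and the log2 change was largest in neurons. For CENPU the log2 changes were 0.98 ± 0.07 in HEK293T, 0.98 ± 0.1 in mESC, 1.57 ± 0.08 in liver bud progenitors and 2.52 ± 0.16 in neurons, with adjusted p = 5.94e-18, 2.38e-08, 3.2e-26 and 1.51e-07.

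CENPC, the scaffold that links the centromere to the outer kinetochore, read, in CPM, 252 and 269 against 133 and 118 in HEK293T, 78.2 and 81.7 against 61.1 and 58.1 in liver bud progenitors and 58.1 and 64.3 against 17.9 and 21.3 in neurons. P-body libraries were above cytoplasm libraries in each human cell type. Its log2 changes were 1.05 ± 0.07 in HEK293T, 0.43 ± 0.09 in liver bud progenitors and 1.64 ± 0.18 in neurons, with adjusted p = 1.67e-21, 7.74e-05 and 1.14e-05. In mESC the row named Cenpc1 had a mean of 257 CPM in P-bodies and 89.7 CPM in cytoplasm, a log2 change of 1.52 ± 0.06 (adjusted p = 5.77e-16).

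CENPT, which builds another link to the outer kinetochore, went the other way. CENPT read, in CPM, 9.67 and 10.8 against 20.6 and 19.3 in HEK293T, 29.3 and 26.2 against 39 and 42.6 in mESC, 12 and 12.9 against 25.8 and 31.2 in liver bud progenitors and 9.05 and 10.4 against 23.4 and 25.4 in neurons. Each P-body library was below each cytoplasm library of its cell type. The log2 changes of CENPT were -0.96 ± 0.16 in HEK293T, -0.56 ± 0.11 in mESC, -1.19 ± 0.16 in liver bud progenitors and -1.33 ± 0.25 in neurons, with adjusted p = 6.01e-07, 0.000147, 4.68e-09 and 0.00132. CENPW, its partner in a histone-fold complex, was lower in HEK293T P-bodies, at 6.51 and 7.02 against 31.3 and 22.6 CPM (log2 -1.99 ± 0.17, adjusted p = 5.65e-16), and was not called elsewhere. CENPM was likewise lower in HEK293T (log2 -1.1 ± 0.17) and not called elsewhere. CENPA and CENPH had few counts in the human cells, between 18 and 135 summed over the 4 libraries of a cell type. CENPO was lower in neurons only (log2 -0.51 ± 0.16, adjusted p = 0.0353), a call lost with DESeq2, RLE size factors, library size only or filterByExpr. CENPI and CENPK were higher in HEK293T, liver bud progenitors and mESC and not called in neurons, CENPL was higher in mESC, and CENPP in HEK293T.

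Among the 9 outer kinetochore genes, 5 were higher and 3 lower in HEK293T P-bodies, 4 and 0 in liver bud progenitors, 4 and 0 in neurons, and 6 and 1 in mESC. KNL1, the platform on which checkpoint proteins gather, read, in CPM, 252 and 248 against 228 and 216 in HEK293T, 812 and 784 against 395 and 370 in mESC, a mean of 288 ± 8.01 (SD, n = 2) against 182 ± 2.1 in liver bud progenitors and 97 and 104 against 40.3 and 39.6 in neurons. In HEK293T the fractions lay close together, and in the other cell types P-bodies were well above cytoplasm. KNL1 had log2 changes of 0.17 ± 0.06 in HEK293T, 1.06 ± 0.04 in mESC, 0.66 ± 0.06 in liver bud progenitors and 1.33 ± 0.13 in neurons, with adjusted p = 0.0181, 1.31e-16, 6.86e-14 and 6.25e-06.

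NDC80, NUF2, SPC24 and SPC25 form the NDC80 complex, which grips the microtubule. Its genes did not share a direction. NUF2 read, in CPM, 55.9 and 60.1 against 31.3 and 26.4 in HEK293T, 134 and 125 against 48.5 and 45.4 in mESC, 21.8 and 18.6 against 12.3 and 12.4 in liver bud progenitors and 8.05 and 16.3 against 3.3 and 2.9 in neurons. P-bodies were above cytoplasm throughout, although the neuron P-body replicates differed widely. NUF2 had log2 changes of 1.01 ± 0.11 in HEK293T, 1.47 ± 0.07 in mESC, 0.71 ± 0.18 in liver bud progenitors and 1.97 ± 0.43 in neurons, with adjusted p = 2.41e-12, 1.14e-14, 0.000782 and 0.00386. NDC80 read, in CPM, 35.7 and 36.2 against 33.7 and 32.4 in HEK293T, 79.3 and 76.7 against 52.8 and 49.3 in mESC, 25.6 and 31 against 25.8 and 22.6 in liver bud progenitors and 36.2 and 31 against 10.1 and 14.1 in neurons. Its fractions overlapped in liver bud progenitors and were apart in neurons and mESC. The log2 changes of NDC80 were 0.12 ± 0.11 in HEK293T, 0.61 ± 0.08 in mESC, 0.23 ± 0.14 in liver bud progenitors and 1.47 ± 0.24 in neurons, with adjusted p = 0.463, 4.34e-07, 0.23 and 0.000424.

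SPC25 read, in CPM, 5.55 and 5.34 against 9.08 and 9.53 in HEK293T, 77.8 and 69.4 against 30.8 and 30.8 in mESC, 6.84 and 5.7 against 6 and 5.57 in liver bud progenitors and 3.09 and 2.18 against 2.08 and 2.4 in neurons. P-bodies were below cytoplasm in HEK293T and above it in mESC, and the fractions overlapped in liver bud progenitors and neurons. SPC25 had log2 changes of -0.77 ± 0.21 in HEK293T, 1.26 ± 0.09 in mESC, 0.12 ± 0.29 in liver bud progenitors and 0.23 ± 0.64 in neurons, with adjusted p = 0.00134, 1.76e-11, 0.798 and 0.812. SPC24 was lower in P-bodies of HEK293T (log2 -1.45 ± 0.19) and mESC (log2 -0.59 ± 0.14) and was not called in the other cells. MIS12 was higher in all but neurons, and DSN1 in HEK293T and mESC. NSL1 was higher in the human cell types and PMF1 lower in HEK293T. The readthrough genes BUB1B-PAK6 and PMF1-BGLAP have rows of their own with at most 73 and 31 counts per library, so reads of PMF1, itself at 32 to 153 counts, may be split.

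Of the 4 corona and fibrous genes, 3 were higher and 1 lower in HEK293T, and 3, 2 and 3 were higher with none lower in liver bud progenitors, neurons and mESC. CENPF, a large coiled-coil protein of dividing cells, read, in CPM, 1060 and 1100 against 616 and 594 in HEK293T, 769 and 726 against 499 and 517 in mESC, 1540 and 1490 against 710 and 728 in liver bud progenitors and 1260 and 1310 against 237 and 252 in neurons. The fractions were apart in each cell type, with the largest log2 change in neurons. CENPF had log2 changes of 0.84 ± 0.05 in HEK293T, 0.56 ± 0.04 in mESC, 1.08 ± 0.05 in liver bud progenitors and 2.39 ± 0.08 in neurons, with adjusted p = 3.18e-22, 1.94e-11, 2.02e-30 and 1.39e-09.

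CENPE, the kinesin that carries chromosomes along microtubules, read, in CPM, 822 and 878 against 483 and 437 in HEK293T, 771 and 726 against 696 and 713 in mESC, 806 and 756 against 446 and 437 in liver bud progenitors and 329 and 403 against 56.8 and 66.2 in neurons. P-bodies were far above cytoplasm in the human cells, and in mESC the values nearly met without overlap. CENPE had log2 changes of 0.89 ± 0.05 in HEK293T, 0.09 ± 0.04 in mESC, 0.82 ± 0.05 in liver bud progenitors and 2.58 ± 0.12 in neurons, with adjusted p = 5.94e-22, 0.0701, 6.99e-22 and 1.33e-08. ZWILCH, part of the complex that brings dynein to kinetochores, read, in CPM, 140 and 140 against 119 and 114 in HEK293T, 146 and 134 against 110 and 95.1 in mESC, 140 and 137 against 69.4 and 66 in liver bud progenitors and 34.4 and 36.8 against 23.8 and 29.2 in neurons. Its P-body values were the higher ones in each cell type, with the smallest log2 change in HEK293T. For ZWILCH the log2 changes were 0.26 ± 0.07 in HEK293T, 0.45 ± 0.07 in mESC, 1.03 ± 0.08 in liver bud progenitors and 0.43 ± 0.19 in neurons, with adjusted p = 0.00104, 6.21e-06, 8.5e-18 and 0.12. ZWINT, which ties that complex to KNL1, read, in CPM, 33.5 and 34.7 against 69.8 and 70.8 in HEK293T, 129 and 127 against 96 and 91.8 in mESC, 12.4 and 14.2 against 14.6 and 13 in liver bud progenitors and 9.38 and 11.8 against 14.6 and 10.8 in neurons. ZWINT was lower in HEK293T P-bodies and higher in mESC P-bodies, and it overlapped between fractions in the other cells. For ZWINT the log2 changes were -1.04 ± 0.1 in HEK293T, 0.44 ± 0.06 in mESC, -0.05 ± 0.19 in liver bud progenitors and -0.27 ± 0.31 in neurons, with adjusted p = 1.68e-14, 1.52e-06, 0.881 and 0.554.

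The SKA complex holds kinetochores on shrinking microtubules. SKA2 read, in CPM, 118 and 129 against 75.5 and 76.3 in HEK293T, 225 and 209 against 97.9 and 92.3 in mESC, 124 and 114 against 45.5 and 43.8 in liver bud progenitors and 55.7 and 64.3 against 29.3 and 32.3 in neurons. P-bodies were higher throughout. The log2 changes of SKA2 were 0.7 ± 0.08 in HEK293T, 1.19 ± 0.06 in mESC, 1.41 ± 0.09 in liver bud progenitors and 0.96 ± 0.16 in neurons, with adjusted p = 4.67e-12, 1.03e-14, 4.94e-22 and 0.000546. SKA3 read, in CPM, 141 and 128 against 90.6 and 95.1 in HEK293T, 208 and 197 against 75.6 and 72.2 in mESC, 168 and 165 against 82 and 65.9 in liver bud progenitors and 19.7 and 18.4 against 10.9 and 13.6 in neurons. Its fractions did not overlap, but the neuron difference was not called. SKA3 had log2 changes of 0.54 ± 0.07 in HEK293T, 1.45 ± 0.06 in mESC, 1.18 ± 0.08 in liver bud progenitors and 0.64 ± 0.26 in neurons, with adjusted p = 4.98e-09, 3.58e-16, 4.32e-20 and 0.0868. SKA1 was lower in HEK293T (log2 -0.39 ± 0.12, adjusted p = 0.00601) and not called elsewhere.

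Of the 6 checkpoint genes, 4 were higher and 1 lower in HEK293T P-bodies, 5 and 0 in liver bud progenitors, 4 and 0 in neurons, and 6 and 0 in mESC. BUB1B, the pseudokinase that inhibits the anaphase-promoting complex, read, in CPM, 459 and 432 against 222 and 221 in HEK293T, 130 and 139 against 101 and 99.6 in mESC, 359 and 380 against 211 and 194 in liver bud progenitors and 270 and 282 against 36.2 and 37.6 in neurons. Neuron cytoplasm was far below neuron P-bodies, and in mESC the fractions lay closer together. Its log2 changes were 1.01 ± 0.06 in HEK293T, 0.42 ± 0.06 in mESC, 0.87 ± 0.06 in liver bud progenitors and 2.9 ± 0.11 in neurons, with adjusted p = 4.03e-23, 3.09e-06, 2.87e-19 and 2.68e-09. BUB1, the kinase that starts checkpoint assembly, read, in CPM, 581 and 561 against 345 and 319 in HEK293T, 189 and 200 against 128 and 124 in mESC, 328 and 303 against 181 and 178 in liver bud progenitors and 108 and 121 against 27 and 27.5 in neurons. No fraction overlapped its counterpart. BUB1 had log2 changes of 0.78 ± 0.06 in HEK293T, 0.62 ± 0.05 in mESC, 0.81 ± 0.07 in liver bud progenitors and 2.07 ± 0.14 in neurons, with adjusted p = 4.42e-19, 7.25e-10, 2.01e-17 and 1.95e-07.

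TTK, the kinase that switches the checkpoint on, read, in CPM, 287 and 297 against 184 and 159 in HEK293T, 549 and 528 against 180 and 181 in mESC, 218 and 208 against 88.4 and 82.1 in liver bud progenitors and 40 and 44.6 against 7.37 and 6 in neurons. P-bodies were above cytoplasm in all 4 cell types. The log2 changes of TTK were 0.77 ± 0.06 in HEK293T, 1.58 ± 0.04 in mESC, 1.32 ± 0.08 in liver bud progenitors and 2.66 ± 0.23 in neurons, with adjusted p = 2.13e-16, 2.57e-19, 1.85e-24 and 1.95e-06. BUB3, the adaptor that docks BUB1 and BUB1B, read, in CPM, 1130 and 1180 against 633 and 655 in HEK293T, 144 and 139 against 109 and 126 in mESC, 146 and 142 against 103 and 104 in liver bud progenitors and 112 and 111 against 69.8 and 76.1 in neurons. P-bodies were the higher fraction in each cell type, with the smallest log2 change in mESC. For BUB3 the log2 changes were 0.85 ± 0.05 in HEK293T, 0.27 ± 0.06 in mESC, 0.48 ± 0.08 in liver bud progenitors and 0.61 ± 0.12 in neurons, with adjusted p = 1.56e-22, 0.00142, 2.07e-07 and 0.00155.

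MAD2L1, which closes around CDC20 to block anaphase, read, in CPM, 49.8 and 56.4 against 69.4 and 68.1 in HEK293T, 262 and 267 against 158 and 146 in mESC, 33.3 and 32.2 against 26.1 and 19.6 in liver bud progenitors and 13 and 10.9 against 9.73 and 11.9 in neurons. P-bodies were below cytoplasm in HEK293T and above it in liver bud progenitors and mESC, and neurons overlapped. Its log2 changes were -0.37 ± 0.09 in HEK293T, 0.8 ± 0.05 in mESC, 0.53 ± 0.14 in liver bud progenitors and 0.14 ± 0.3 in neurons, with adjusted p = 0.00044, 2.55e-12, 0.00153 and 0.752. MAD1L1, the anchor of MAD2L1, was called in mESC alone (log2 0.46 ± 0.17, adjusted p = 0.0319), and its values in the human cells did not exceed 9.25 CPM.

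The mitotic kinases differed among themselves. AURKA, which works at spindle poles, read, in CPM, 406 and 458 against 185 and 189 in HEK293T, 137 and 138 against 132 and 123 in mESC, 101 and 99.1 against 61.3 and 57 in liver bud progenitors and 69.3 and 51.7 against 12.9 and 13.9 in neurons. Human P-bodies were well above cytoplasm, and in mESC the fractions nearly met. AURKA had log2 changes of 1.21 ± 0.06 in HEK293T, 0.11 ± 0.06 in mESC, 0.76 ± 0.09 in liver bud progenitors and 2.17 ± 0.2 in neurons, with adjusted p = 9.01e-26, 0.115, 2.55e-11 and 3.3e-06. AURKB, which corrects faulty attachments at the centromere, read, in CPM, 49.1 and 48.5 against 75.1 and 80.5 in HEK293T, 64.5 and 73 against 57 and 56.7 in mESC, 28 and 23.6 against 31.3 and 28.7 in liver bud progenitors and 13.9 and 13 against 18.7 and 19.5 in neurons. It was lower in HEK293T P-bodies and higher in mESC P-bodies. The log2 changes of AURKB were -0.67 ± 0.09 in HEK293T, 0.27 ± 0.08 in mESC, -0.22 ± 0.14 in liver bud progenitors and -0.51 ± 0.25 in neurons, with adjusted p = 1.9e-09, 0.008, 0.24 and 0.15.

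PLK1 had the highest cytoplasmic CPM per kb of transcript of any member in each cell type, at 196 in HEK293T, 161 in mESC, 104 in liver bud progenitors and 32 in neurons. PLK1 read, in CPM, 296 and 322 against 415 and 433 in HEK293T, 398 and 415 against 356 and 354 in mESC, 156 and 157 against 224 and 224 in liver bud progenitors and 64.6 and 84 against 63.4 and 74.9 in neurons. P-bodies were below cytoplasm in HEK293T and liver bud progenitors, overlapped it in neurons and were above it in mESC. Its log2 changes were -0.45 ± 0.06 in HEK293T, 0.19 ± 0.04 in mESC, -0.51 ± 0.07 in liver bud progenitors and 0.11 ± 0.16 in neurons, with adjusted p = 4.66e-10, 0.000503, 1.49e-09 and 0.641. In mESC the signs for Plk1, Aurkb and Bub3 turned with scaling by library size alone, to -0.21, -0.13 and -0.13.

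Both shugoshins were higher in P-bodies wherever they were measured. SGO1 read, in CPM, 353 and 343 against 137 and 133 in HEK293T, 1360 and 1320 against 386 and 359 in mESC, 136 and 131 against 69.4 and 61.6 in liver bud progenitors and 58.4 and 57.8 against 12.3 and 15.6 in neurons. Each P-body library was above the cytoplasm libraries of its cell type. SGO1 had log2 changes of 1.37 ± 0.06 in HEK293T, 1.85 ± 0.04 in mESC, 1.03 ± 0.08 in liver bud progenitors and 2.06 ± 0.19 in neurons, with adjusted p = 4.17e-28, 6.84e-21, 2.84e-17 and 3.43e-06. SGO2 read, in CPM, 112 and 127 against 66.8 and 63.3 in HEK293T, 163 and 161 against 77.2 and 67.5 in liver bud progenitors and 34.8 and 50.8 against 5.48 and 6.1 in neurons. P-bodies were above cytoplasm in each human cell type, and the log2 change was largest in neurons. For SGO2 the log2 changes were 0.88 ± 0.08 in HEK293T, 1.17 ± 0.08 in liver bud progenitors and 2.89 ± 0.26 in neurons, with adjusted p = 1.07e-14, 1.79e-20 and 2.58e-06. In mESC, Sgo2a had a mean of 1830 CPM in P-bodies and 733 CPM in cytoplasm (log2 1.32 ± 0.04, adjusted p = 2.34e-19), and Sgo2b 14.8 and 6.6 CPM (log2 1.16 ± 0.19, adjusted p = 1.70e-05). These are near copies, so reads may be divided between them.

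**Figure D2:**
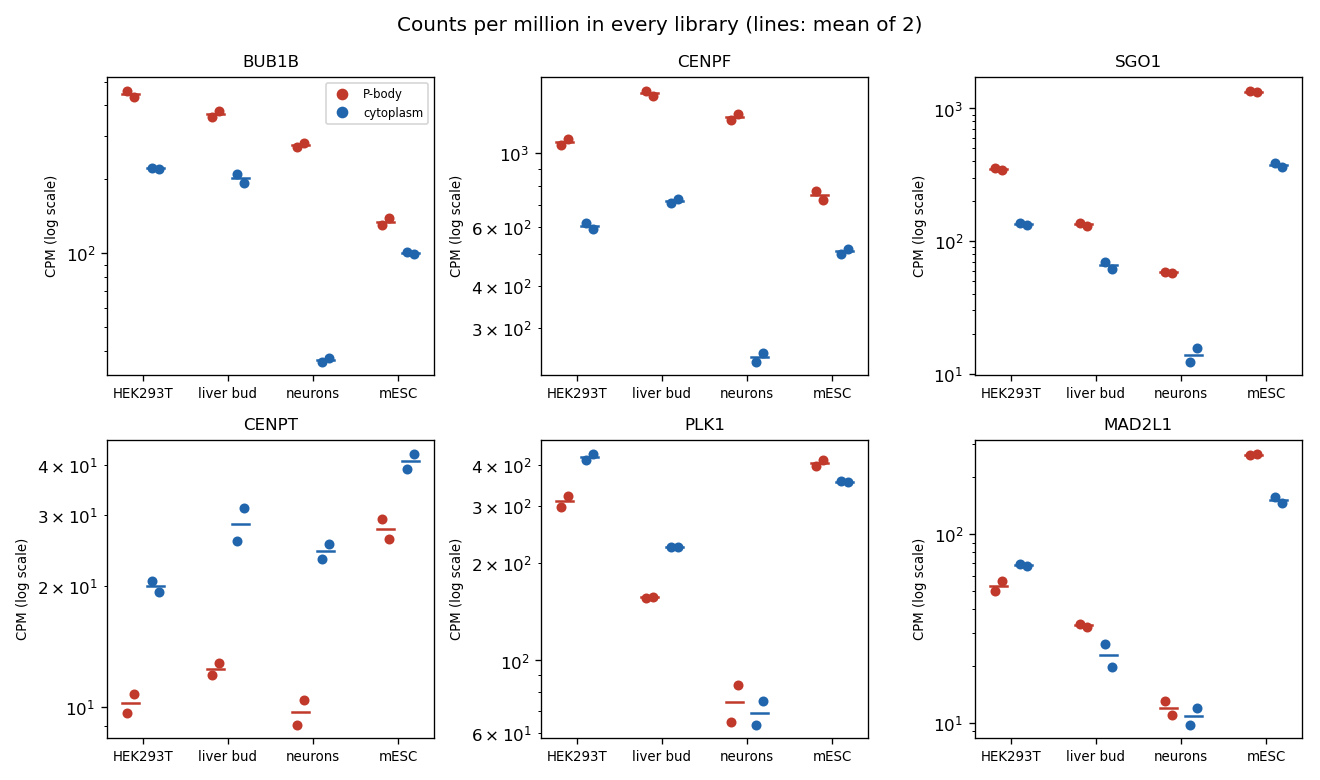
CPM on a log scale (y axis) of BUB1B, CENPF, SGO1, CENPT, PLK1 and MAD2L1 in every library of the 4 cell types (x axis), red P-body and blue cytoplasm; points are libraries and lines the mean of 2. BUB1B, CENPF and SGO1 are higher in P-bodies and CENPT lower throughout, while PLK1 and MAD2L1 change side between cell types.

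The members also differed in base composition. Their transcripts (longest coding transcript in GENCODE 44) ranged from 32.8% to 62.6% G and C with a median of 41.1%, below the median of 47.3% over genes at 1 CPM or more in HEK293T. Members called higher in all 4 cell types, SGO1, CENPQ and TTK, are shown beside CENPT, CENPW and SPC24, which were lower in P-bodies of HEK293T. The first 120 coding bases are given from hg38 gene models, with G and C in capitals. The coordinates beside them are those of the whole gene and not of the stretch. The members shown were chosen after their values were seen.
SGO1 (chr3:20160593-20186206, minus strand): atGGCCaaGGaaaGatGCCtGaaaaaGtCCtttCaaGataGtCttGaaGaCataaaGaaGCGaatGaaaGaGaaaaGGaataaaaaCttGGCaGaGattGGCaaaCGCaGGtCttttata
CENPQ (chr6:49463370-49493107, plus strand): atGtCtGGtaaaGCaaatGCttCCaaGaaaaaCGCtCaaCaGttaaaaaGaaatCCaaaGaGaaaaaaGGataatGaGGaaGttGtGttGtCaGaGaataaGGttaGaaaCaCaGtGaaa
TTK (chr6:80003887-80042527, plus strand): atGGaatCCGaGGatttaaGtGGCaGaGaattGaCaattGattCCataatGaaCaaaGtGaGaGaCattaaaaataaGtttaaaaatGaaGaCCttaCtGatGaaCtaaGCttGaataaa
CENPT (chr16:67828157-67847811, minus strand): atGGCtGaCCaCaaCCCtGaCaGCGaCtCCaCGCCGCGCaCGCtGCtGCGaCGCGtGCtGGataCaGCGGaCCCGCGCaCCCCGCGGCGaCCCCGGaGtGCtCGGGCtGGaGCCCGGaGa
CENPW (chr6:126340115-126348875, plus strand): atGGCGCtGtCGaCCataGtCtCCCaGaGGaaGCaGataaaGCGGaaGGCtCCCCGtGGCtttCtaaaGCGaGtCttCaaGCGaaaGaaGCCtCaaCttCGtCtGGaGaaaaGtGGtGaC
SPC24 (chr19:11131520-11155807, minus strand): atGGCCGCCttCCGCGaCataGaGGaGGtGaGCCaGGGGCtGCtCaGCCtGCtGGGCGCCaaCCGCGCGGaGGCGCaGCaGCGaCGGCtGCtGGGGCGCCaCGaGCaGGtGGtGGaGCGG

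CENPW is the exception among the last 3, since its whole transcript held only 39.2% G and C, against 59.0% for CENPT and 53.3% for SPC24. Whole transcripts of SGO1, CENPQ and TTK held 38.9%, 34.0% and 40.8%. In the stretches shown, the capitals made up 37.5%, 34.2% and 30.8% of the bases of SGO1, CENPQ and TTK and 72.5%, 52.5% and 73.3% of those of CENPT, CENPW and SPC24. Across the 41 members, GC content and the log2 P-body ratio had a Spearman rho of -0.545 in HEK293T, of -0.694 in liver bud progenitors, of -0.622 in neurons, and across 39 members of -0.484 in mESC. Over all genes at 1 CPM or more the rho was -0.558, -0.586, -0.508 and -0.589. These are descriptions across genes that share libraries.

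Shares of genes by GC content are over genes at 1 CPM or more, unlike the shares of all genes tested given elsewhere. In HEK293T, 12 of the 16 members under 40% GC were higher in P-bodies, beside 63.7% of such genes. Between 40% and 50% GC it was 12 of 17, beside 42.8%. Of the 8 members at 50% or more, none was higher and 6 were lower, beside 8.63% and 62.3% of genes in that range. Neurons had 10 of 16 members higher under 40% GC, beside 44.8%, and 8 of 17 between 40% and 50%, beside 27%. In liver bud progenitors 13 of 16 and 10 of 17 were higher, beside 74.2% and 42.6%. In mESC, where only 3 members were under 40% GC, 20 of 26 between 40% and 50% were higher, beside 54.5%. At 50% or more GC, 4 of 10 members in mESC were higher and 2 lower, beside 9.29% and 32.0% of genes, while in liver bud progenitors and in neurons none of 8 was higher and 2 were lower, beside 6.76% and 40.9%, and 4.93% and 36.4%.

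With the trend of all genes with GC content removed from each library, an alternative added after seeing the data, the median log2 change of the members fell to 0.23 in HEK293T, 0.15 in mESC, 0.15 in liver bud progenitors and 0.38 in neurons. HEK293T then had 20 members higher and 10 lower, beside 18.0% and 16.7% of all genes under the same correction. The counts were 18 and 14 in mESC, beside 17.3% and 24.3%, 13 and 4 in liver bud progenitors, beside 14.3% and 15.8%, and 14 and 0 in neurons, beside 11.3% and 8.65%. CENPQ, CENPU, BUB1B, TTK and SGO1 were still called higher in all 4 cell types. KNL1 turned to -0.33 in HEK293T, -0.14 in liver bud progenitors and -0.19 in mESC, and BUB3 to -0.11 and -0.52 in the latter pair. PLK1 turned to 0.30 in HEK293T. Signs also turned for NUF2, CENPC, CENPI, CENPE and MAD2L1 in liver bud progenitors, for Cenpf, Bub1, Mad2l1, Zwint, Zwilch and Cenpl in mESC, for ZWILCH, PMF1 and AURKB in HEK293T, and for CENPO in neurons.

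**Figure D3:**
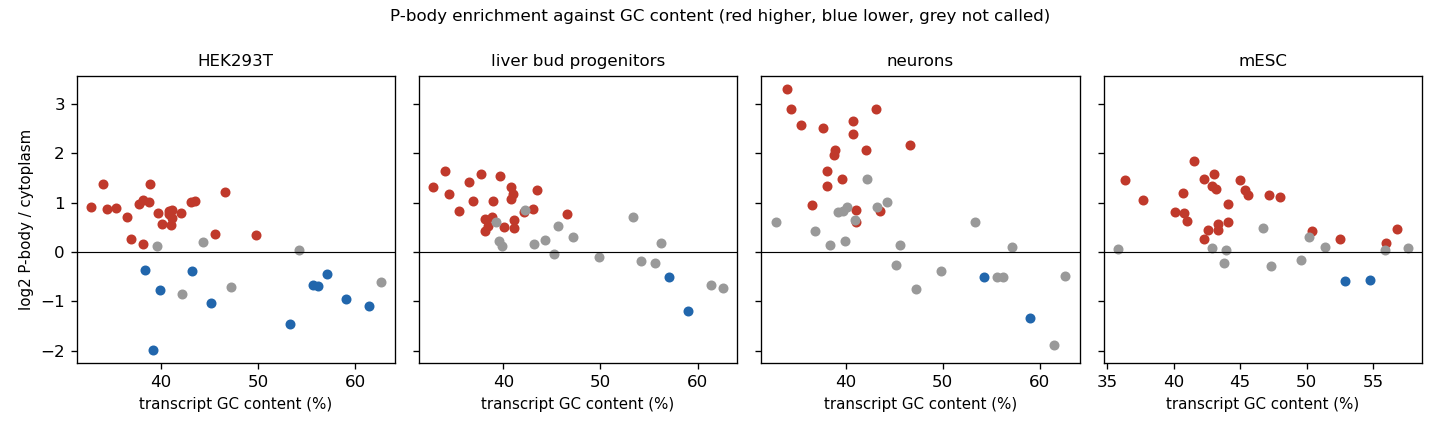
Log2 ratio of P-body to cytoplasm (y axis) against transcript GC content in percent (x axis) for the members in each cell type, 1 point per gene, red higher, blue lower and grey not called. Points slope down from low to high GC, with a Spearman rho between -0.694 and -0.484.

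Neurons and liver bud progenitors share a parent line and a library method, so their cytoplasm was compared directly. Members were mostly lower in neurons: 31 were lower, 4 higher (CENPO, SPC24, PMF1 and MAD1L1) and 6 not called, beside 25.8% of all genes lower and 26% higher, with a median log2 change of -1.21 against -0.16 for all genes, -0.52 with scaling by library size alone and 0.06 over genes at a mean of 1 CPM or more. In bulk samples fewer dividing cells and less RNA per cell cannot be told apart. TTK read 7.95 and 6.48 CPM in neurons and 82.4 and 76.8 CPM in liver bud progenitors (log2 -3.46 ± 0.16, adjusted p = 2.67e-32). CENPQ read 1.63 and 2.59 CPM in neurons and 34.1 and 29.7 CPM in liver bud progenitors (log2 -3.91 ± 0.24, adjusted p = 1.04e-24). The neuron values lay far below the liver bud values for both. SGO2 read 5.91 and 6.58 CPM in neurons and 71.9 and 63.2 CPM in liver bud progenitors (log2 -3.43 ± 0.17, adjusted p = 1.75e-30). CENPE read 61.3 and 71.4 CPM in neurons and 415 and 408 CPM in liver bud progenitors (log2 -2.63 ± 0.09, adjusted p = 3.4e-40). CENPF read 256 and 272 CPM in neurons and 662 and 680 CPM in liver bud progenitors (log2 -1.35 ± 0.07, adjusted p = 5.89e-27). CENPT, at 25.3 and 27.4 CPM in neurons and 24 and 29.2 CPM in liver bud progenitors, overlapped between them (log2 -0.02 ± 0.16, adjusted p = 0.936). With the GC trend removed, 24 members were lower and 2 higher, beside 25.2% and 23.2% of all genes.

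The proliferation genes, among them MKI67 and TOP2A, summed to 2010 and 1970 CPM in neuron cytoplasm and 3100 and 3080 CPM in liver bud progenitor cytoplasm, and neural progenitor markers to 1030 and 967 CPM in neuron cytoplasm. Their part in the members' levels was not tested.

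The members' promoters were also read, from RefSeq (GRCh38, 250 bases before to 50 after the start), with an entry for 34 of the 41. CENPH, CENPL, CENPM, KNL1, BUB3, TTK and AURKA had none. Promoters of cell cycle genes are known for the cell cycle homology region TTTGAA and for CCAAT boxes. On either strand TTTGAA stood in 14 of the 34 promoters (41.2%), beside 12.6% of the 16097 promoters of genes tested, and CCAAT in 21 (61.8%), beside 36.2%. Both were present in 8 (23.5%), beside 5.21%. The members with TTTGAA wholly within the 120 bases before the start are shown over those bases, with both motifs in capitals on either strand.
CENPA (chr2:26785936-26786055, plus strand): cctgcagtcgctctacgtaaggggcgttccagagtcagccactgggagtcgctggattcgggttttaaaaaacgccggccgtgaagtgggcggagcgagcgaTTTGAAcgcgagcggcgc
CENPC (chr4:67545504-67545623, minus strand): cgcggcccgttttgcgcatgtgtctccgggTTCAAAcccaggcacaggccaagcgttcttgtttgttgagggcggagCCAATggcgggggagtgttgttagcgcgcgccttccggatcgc
ZWINT (chr10:56361260-56361379, minus strand): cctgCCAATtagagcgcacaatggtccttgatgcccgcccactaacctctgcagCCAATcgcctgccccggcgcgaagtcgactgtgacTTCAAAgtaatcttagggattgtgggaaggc
BUB1B (chr15:40160949-40161068, plus strand): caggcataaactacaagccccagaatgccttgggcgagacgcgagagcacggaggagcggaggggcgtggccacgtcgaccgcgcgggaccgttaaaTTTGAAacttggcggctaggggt
PLK1 (chr16:23678769-23678888, plus strand): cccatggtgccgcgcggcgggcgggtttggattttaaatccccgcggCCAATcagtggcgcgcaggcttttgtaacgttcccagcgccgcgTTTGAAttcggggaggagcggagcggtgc

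Of these genes, CENPC, BUB1B and PLK1 were lower in neuron than in liver bud progenitor cytoplasm, and CENPA and ZWINT were not called. The members with TTTGAA elsewhere in the window were lower except CENPO, which was higher. Members without TTTGAA were lower as well, among them CENPQ (log2 -3.91), SGO2 (-3.43) and CENPE (-2.63). Of those without it, SPC24, PMF1 and MAD1L1 were higher, and CENPP, CENPT and DSN1 were not called. Whether the motif goes with the change was not tested. A match of letters is a description of the window and not a bound site.

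The P-body ratio itself differed between neurons and liver bud progenitors for 15 members in an interaction test over 8 libraries. For 14 of them the ratio was higher in neurons and for 1, ZWILCH, it was higher in liver bud progenitors, beside 9.21% and 8.5% of all genes. The median difference of the members was 0.20 on the log2 scale, and that of all genes 0.23, or 0.58 with scaling by library size alone. Over the 15081 genes at a mean of 1 CPM or more the median was -0.04. This comparison and the cytoplasm comparison share the 4 cytoplasm libraries. BUB1B had the largest called difference, 2.03 ± 0.12 (adjusted p = 4.1e-08). CENPE differed by 1.74 ± 0.13 (adjusted p = 3.24e-07), SGO2 by 1.71 ± 0.24 (adjusted p = 0.000109) and CENPQ by 1.66 ± 0.27 (adjusted p = 0.000557). The kinases followed, with AURKA at 1.41 ± 0.21 (adjusted p = 0.000232), TTK at 1.33 ± 0.18 (adjusted p = 8.5e-05) and PLK1 at 0.61 ± 0.16 (adjusted p = 0.0154). CENPF differed by 1.31 ± 0.08 (adjusted p = 8.26e-08) and BUB1 by 1.25 ± 0.13 (adjusted p = 6.05e-06). The remaining called members were NDC80 at 1.24 ± 0.29 (adjusted p = 0.00728), CENPC at 1.21 ± 0.18 (adjusted p = 0.000237), SGO1 at 1.03 ± 0.18 (adjusted p = 0.000956), CENPU at 0.95 ± 0.16 (adjusted p = 0.000724) and KNL1 at 0.66 ± 0.12 (adjusted p = 0.00123). Leaving out 1 library ended the call of PLK1 for 6 of the 8 libraries (each liver bud progenitor library, neuron P-body replicate 2 and neuron cytoplasm replicate 1) and that of NDC80 for 3 (replicate 1 of both liver bud progenitor fractions and of neuron cytoplasm). The number of members with the higher ratio in liver bud progenitors rose when neuron P-body replicate 1 or replicate 2 was left out. The number of all genes with the higher ratio there rose as well. Without neuron cytoplasm replicate 1 the members' number rose while that of all genes fell. Without each of the others both numbers fell. ZWILCH, at -0.61 ± 0.17 (adjusted p = 0.0229), was not called with DESeq2, library size only or filterByExpr. BUB3, SKA2 and CENPN, though higher in P-bodies of both, did not pass this test, with differences of 0.13 ± 0.13 (adjusted p = 0.556), -0.46 ± 0.17 (adjusted p = 0.0787) and -0.42 ± 0.21 (adjusted p = 0.196).

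**Figure D4:**
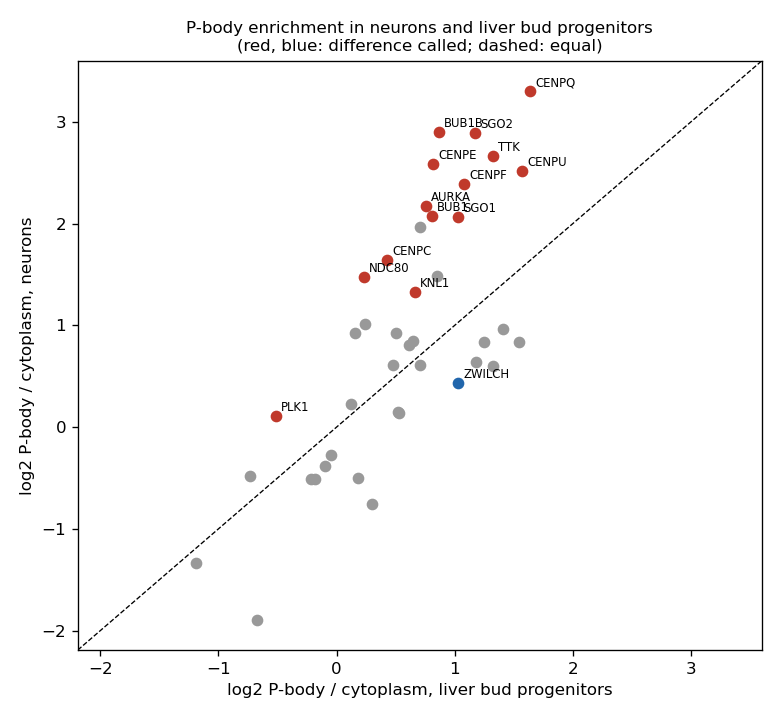
Log2 ratio of P-body to cytoplasm in neurons (y axis) against that in liver bud progenitors (x axis), 1 point per member; red and blue points were called in the interaction test and grey were not, and the dashed line marks equal ratios. The 14 red points lie above the line, with BUB1B furthest in difference at 2.03, and ZWILCH in blue lies below it.

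Other genes of chromosome segregation were counted beside the same shares of all genes, which were 19.3% higher and 22.8% lower in HEK293T, 25.8% and 20.6% in mESC, 21.4% and 17.1% in liver bud progenitors and 14.6% and 14.1% in neurons. Of 11 cohesin and separase genes, 8 were higher and 2 lower in P-bodies of HEK293T, 8 and 2 in mESC, 9 and 2 in liver bud progenitors and 8 and 1 in neurons. The cohesin ring subunit SMC3 (log2 0.84 ± 0.06, adjusted p = 5.18e-20) and its regulator PDS5B (0.76 ± 0.05, 7.59e-19) were higher in HEK293T, while ESPL1, the separase (-1.32 ± 0.10, 3.19e-17), and its inhibitor PTTG1 (-1.39 ± 0.11, 3.46e-17) were lower. Of 18 genes of the anaphase-promoting complex and its partners, the target of the checkpoint, 4 were higher and 11 lower in HEK293T, 4 and 3 in mESC, 9 and 2 in liver bud progenitors and 2 and 5 in neurons. ANAPC1 (-0.93 ± 0.06, 1.81e-20) and ANAPC5 (-1.11 ± 0.10, 1.31e-14) were lower in HEK293T and ANAPC13 (0.79 ± 0.08, 2.55e-12) and CDC27 (0.42 ± 0.06, 4.97e-09) higher. Another 17 kinetochore and centromere genes had 7 higher and 2 lower, 4 and 4, 8 and 2, and 5 and 0 in the same order of cell types, with SPDL1 (1.30 ± 0.05, 1.85e-29) and HJURP (1.51 ± 0.06, 4.22e-29) higher and BIRC5 (-1.24 ± 0.13, 2.00e-12) and KNTC1 (-0.29 ± 0.10, 0.0136) lower in HEK293T. The 11 proliferation genes had 3 and 5, 4 and 0, 5 and 5, and 2 and 3, with TOP2A (0.86 ± 0.05, 2.44e-21) and MKI67 (0.47 ± 0.05, 1.29e-13) higher and TYMS (-0.76 ± 0.08, 1.78e-12) and MCM4 (-0.55 ± 0.06, 3.45e-11) lower in HEK293T. In mESC the counts higher and lower of the anaphase-promoting list and of the other kinetochore genes lie near the shares of all genes. So do the counts higher of the anaphase-promoting list in HEK293T and neurons and of the proliferation list in neurons. The counts lower of the cohesin list lie near the shares in each cell type. In the interaction test, beside 9.21% and 8.5% of all genes, the cohesin list had 6 members with the higher ratio in neurons and 2 in liver bud progenitors, the anaphase-promoting list 0 and 4, the other kinetochore list 5 and 1 and the proliferation list 3 and 0. Values in parentheses are log2 changes with their SE and the adjusted p.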

How the data were processed

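P-body-seq RNA was measured in 16 libraries. Whole-number counts by gene symbol were deposited for hg38 and mm10, without genes under 10 counts in total. The authors' methods name nf-core, salmon and refGene annotation for snapTotal-seq and hisat2 with featureCounts for Smart-seq, whose kits are those of the polyA RNA libraries. Their DESeq2 tables, with log2 fold changes and p-values, were not used. Fractions were compared on the 4 libraries of each cell type by edgeR 4.0.16 quasi-likelihood F tests (R 4.3.3), TMM normalization, two-sided, with Benjamini-Hochberg adjustment over all genes tested, leaving out genes at 0 counts throughout. CPM values are TMM-scaled within a comparison, and summed levels within a table. Alternatives were DESeq2 1.42.0, RLE, library size only, filterByExpr, no filter, all human libraries together, no ribosomal RNA genes, the replicate number as a block and each library left out. A GC trend (lowess, span 0.3) and a minimum of 10 counts were added after seeing the data. GC content came from GENCODE 44 and M21. The fits were tested on simulated data with the same spread for every library. That test does not speak for the noisier neuron P-body libraries. Members and lists were chosen with earlier results of these data known. Members were named with all values where called in all 4 cell types, in opposite directions, in the interaction, or of highest mean CPM in their role. By the authors' methods each P-body sample has a cytoplasm aliquot from before its sorting. Same-numbered replicates deviated with correlations of -0.00769, -0.000606, -0.013 and 0.0616, which with 2 libraries per fraction cannot decide whether they are such pairs. The numbers were not taken as pairs in the main fits.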

Additional observations from a re-analysis of the deposited data

Results flagged for a closer look

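The P-body ratio of 15 members differed between neurons and liver bud progenitors by the test of the difference itself (edgeR interaction, adjusted p under 0.05). The log2 difference, neurons minus liver bud progenitors, was 1.21 for CENPC, 1.66 for CENPQ, 0.95 for CENPU, 1.24 for NDC80, 0.66 for KNL1, 1.74 for CENPE, 1.31 for CENPF, -0.61 for ZWILCH, 1.25 for BUB1, 2.03 for BUB1B, 1.33 for TTK, 1.41 for AURKA, 0.61 for PLK1, 1.03 for SGO1 and 1.71 for SGO2.

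For 5 members every library moved one way in one cell type and the opposite way in another, with both changes called, and the difference between the cell types was not tested. MAD2L1 had a log2 ratio of -0.37 in HEK293T and of 0.53 in liver bud progenitors and 0.80 in mESC. SPC25 was at -0.77 in HEK293T and 1.26 in mESC, ZWINT at -1.04 and 0.44, and AURKB at -0.67 and 0.27. PLK1 was at -0.45 in HEK293T and -0.51 in liver bud progenitors and at 0.19 in mESC. With the GC trend removed, signs turned for PLK1 and AURKB in HEK293T, MAD2L1 in liver bud progenitors, and Zwint and Mad2l1 in mESC. Scaling by library size alone turned those of Aurkb and Plk1 in mESC. The opposite directions therefore depend on the processing for all of these members but SPC25. Between HEK293T and mESC, species and cell type cannot be told apart, nor can the kind of RNA and cell type between liver bud progenitors and either of them.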

How the results depend on the processing

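For CENPH, with 18 counts over the 4 neuron libraries, no difference was detectable at this depth. With the GC trend removed, signs turned in HEK293T for KNL1 (-0.33), PMF1 (0.01), ZWILCH (-0.29), AURKB (0.00) and PLK1 (0.30), in liver bud progenitors for CENPC (-0.38), CENPI (-0.16), NUF2 (-0.04), KNL1 (-0.14), CENPE (-0.16), BUB3 (-0.11) and MAD2L1 (-0.25), in neurons for CENPO (0.02), in mESC for Cenpl (-0.16), Knl1 (-0.19), Cenpf (-0.13), Zwint (-0.31), Zwilch (-0.23), Bub1 (-0.30), Bub3 (-0.52) and Mad2l1 (-0.22), and in the cytoplasm comparison for CENPK (0.10), MIS12 (0.04), NSL1 (0.08), SKA2 (0.86), BUB3 (0.24) and MAD2L1 (0.05). Scaling by library size only turned Bub3 (-0.13), Aurkb (-0.13) and Plk1 (-0.21) in mESC. Members lower in P-bodies numbered 7 in HEK293T with all human libraries together, beside 3476 of 21903 genes. They numbered 5 (library size only) and 4 (GC trend removed, with 13 higher) in liver bud progenitors. In mESC they numbered 8 (library size only) and 14 (GC trend removed). The shares of all genes for these 2 settings are given above. In neurons, members lower in P-bodies numbered 1 with DESeq2, RLE, library size only or filterByExpr and 0 with the GC trend removed. Genes lower numbered 2457 of 18668, 2802 of 22093, 2356 of 22093 and 2739 of 15030 in the first 4 of these settings. With all human libraries together there were 4 such members, beside 4950 of 22093 genes. Members with the higher ratio in liver bud progenitors numbered 0 with DESeq2, library size only or filterByExpr, beside 1479 of 18382, 940 of 22268 and 1536 of 16619 genes. With all human libraries together there were 5, beside 2786 of 22268 genes. Members higher in neuron cytoplasm numbered 2 with DESeq2, 1 with library size only and 2 with the GC trend removed. Genes higher there numbered 4412 of 18078, 4173 of 21900 and 5083 of 21900 in the same order. The cause was not tested. With the replicate number as a block there were 3 members with the higher ratio in liver bud progenitors, beside 2334 of 22268 genes. The numbers of HEK293T members were then 23 higher and 13 lower, beside 4157 and 4981 of 21903 genes. CENPP in HEK293T and SKA2 in the cytoplasm comparison lost their calls. Leaving out each library in turn gave 21 to 23 members higher and 10 to 12 lower in HEK293T, 21 to 24 and 2 in liver bud progenitors, 17 to 23 and 1 to 3 in neurons, and 25 to 26 and 2 in mESC. It left most calls of the interaction in place. It raised the number of members with the higher ratio in liver bud progenitors for each neuron P-body replicate, along with that of all genes. It also raised the members' number for neuron cytoplasm replicate 1, where that of all genes fell. It lowered both numbers for the other libraries. It gave 2 to 4 members higher in neuron cytoplasm, with 2 without liver bud progenitor cytoplasm replicate 2, and 26 to 30 lower. In these fits the lone library is assumed to vary like the other groups. In the interaction, the call of PLK1 was lost without any of the 4 liver bud progenitor libraries, neuron P-body replicate 2 or neuron cytoplasm replicate 1. The call of NDC80 was lost without replicate 1 of either liver bud progenitor fraction or of neuron cytoplasm, and that of ZWILCH without any liver bud progenitor library or neuron cytoplasm replicate 2. In neurons, the call of CENPO was lost without P-body replicate 1 or either cytoplasm replicate.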
